A study of Mus musculus with 6 samples.

Results

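The Gimap genes encode GTPases of immunity-associated proteins, a family that sits side by side in a cluster on mouse chromosome 6. All 8 members, Gimap1, Gimap3, Gimap4, Gimap5, Gimap6, Gimap7, Gimap8 and Gimap9, were looked for by matching the RefSeq accession of every array probe to its gene symbol. Of 41174 probes, 8 belonged to 7 members: 2 to Gimap3 and 1 each to Gimap1, Gimap4, Gimap5, Gimap6, Gimap7 and Gimap9. No probe matched Gimap8, which is not analysed here. Gimap proteins share a guanine nucleotide-binding domain, sit mostly on membranes inside the cell, and are known above all from lymphocytes. Mice or rats that lack functional Gimap5 lose peripheral T cells, and mouse Gimap1 is needed for the survival of mature T and B cells. Several members have been reported to bind proteins of the BCL2 family, which control cell death.

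The RNA came from blood drawn from the heart (right ventricle) of male C57BL/6J mice, an inbred strain, aged 9 weeks when the diet began. Mice given 50% food restriction (FR) of chow for 2 weeks were compared with control mice on a normal diet, with 8 animals per diet. Samples were pooled by diet. Pool 2 combined mice 1 to 4, pool 3 combined mice 5 to 8, and pool 1 combined all 8. Each pool was measured on 2 two-colour Agilent arrays, where FR and control RNA met on the same array and swapped dyes on the next, which made 6 arrays. The replicates of every test are the 2 pools without a mouse in common, 2 and 3, and pool 1 is a repeat measurement of those mice on another slide. Pooling hides the spread between single mice. Of 11 erythroid markers 9 were tested, and all 9 were well above background on every FR array of pools 2 and 3. The same held for all 9 tested platelet markers, of 10 on their list. Only probes clearly above background in FR or in control were tested. These counts were thus partly set by that filter and do not test the identity of the tissue. The share of probes well above background depended on the dye. With FR in Cy5 it was 55.0%, 33.7% and 43.9% in FR (pools 1, 2 and 3), against 41.8%, 36.7% and 39.2% in control. With FR in Cy3 it was 39.2%, 29.8% and 20.0% in FR, against 61.6%, 49.3% and 47.2% in control. Saturation affected none of the spots. Precision is limited by how few pools there are.

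Along the chromosome the RefSeq order is Gimap8, Gimap9, Gimap4, Gimap6, Gimap7, Gimap1, Gimap5 and Gimap3, with Rarres2, Gm5111, Repin1 and Zfp775 on the Gimap8 side and Tmem176b, Tmem176a, Gm7932 and Aoc1 on the Gimap3 side. The promoter windows of the 3 brightest tested members are shown because these genes lie in the same cluster and their ratios were below 0 on every array. Each window runs from 250 bases before to 50 bases after the RefSeq start (GRCm38.p6), 5′ to 3′ on the gene's strand, with matches to the ETS core GGAAGT on either strand (ACTTCC on the other) in capitals. The windows are chr6:48708195-48708494 on the minus strand for Gimap6, chr6:48738797-48739096 on the plus strand for Gimap1 and chr6:48745947-48746246 on the plus strand for Gimap5.
Gimap6: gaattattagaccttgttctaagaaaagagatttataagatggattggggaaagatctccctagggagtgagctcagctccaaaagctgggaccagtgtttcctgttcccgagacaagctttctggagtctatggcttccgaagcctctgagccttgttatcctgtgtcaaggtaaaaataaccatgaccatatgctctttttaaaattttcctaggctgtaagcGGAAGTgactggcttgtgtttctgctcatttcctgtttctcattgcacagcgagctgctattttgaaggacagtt
Gimap1: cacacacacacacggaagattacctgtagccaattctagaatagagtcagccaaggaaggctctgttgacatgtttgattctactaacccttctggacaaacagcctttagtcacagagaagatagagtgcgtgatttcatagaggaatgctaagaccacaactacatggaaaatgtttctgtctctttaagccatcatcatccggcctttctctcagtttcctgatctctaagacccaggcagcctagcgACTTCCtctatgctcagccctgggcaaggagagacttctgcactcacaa
Gimap5: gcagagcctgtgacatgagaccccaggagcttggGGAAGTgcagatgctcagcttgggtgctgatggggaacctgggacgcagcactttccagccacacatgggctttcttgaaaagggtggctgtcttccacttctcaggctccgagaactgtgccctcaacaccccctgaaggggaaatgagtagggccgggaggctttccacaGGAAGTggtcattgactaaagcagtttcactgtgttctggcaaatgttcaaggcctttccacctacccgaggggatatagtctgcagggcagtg
In Gimap6 the match begins 25 bases before the start, in Gimap5 the 2 matches begin 216 and 44 bases before it, and in Gimap1 the match, on the opposite strand, lies just past the start. GGAAGT was found in 4 of the 9 windows of the 8 members (Gimap1, Gimap5, Gimap6 and Gimap9), against 23.8% of the 32851 windows of the RefSeq table. The RUNX core TGTGGT, on either strand, was found in 3 of the 9 windows (Gimap1, Gimap4 and Gimap7), against 16.8% of all windows. It had no overlap with an ETS match in these windows. The core of KLF and SP factors, GGGCGG on either strand, was found in 2 of the 9 windows (Gimap7 and Gimap9), against 35.7% of all windows, also without overlap. A match describes letters and is not evidence of binding.

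Transcripts of all 5 Gimap genes that could be tested were lower in FR blood. Gimap6 and Gimap1 fell most, Gimap5 and Gimap3 less and Gimap9 least on the scale of the test, while Gimap4 and Gimap7 were too dim to test. To be tested, a probe had to exceed background clearly, in FR or in control, on each of the 4 arrays of the replicate pools. This held for 5 of the 8 Gimap probes and for 13258 probes of the array. Gimap1, Gimap3, Gimap5 and Gimap9 entered through control alone, so that their number among the called genes was partly set by the filter. All 5 were lower in FR (limma, Benjamini-Hochberg adjusted p under 0.05 over all probes tested), where 28.4% of the 7910 named genes tested were lower, 3.29% higher and 31.7% either. Over all probes tested, 25.5% were lower, 4.01% higher and 29.5% either. In bulk blood, fewer cells of a type and less RNA per cell cannot be told apart.

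Gimap6, which takes part in autophagy in T cells of mice, had the strongest signals of the family. Its processed signals in FR were 447 and 356 fluorescence units in pool 2, 235 and 298 in pool 3 and 367 and 538 in pool 1 (FR in Cy5, then in Cy3). In control they were 3488 and 3514 in pool 2, 1745 and 1769 in pool 3 and 2314 and 4122 in pool 1, on the same arrays. Every FR value lay below every control value, and it was the only member well above background in FR on all 6 arrays. The size of its fall still depended on how low signals were corrected. The log2 ratio of FR over control was -2.03 ± 0.38 (SD, n = 2 pools; adjusted p = 6.91e-36), or 4.07-fold lower in FR. The ratio was -2.29 in pool 2 and -1.76 in pool 3, and the repeat in pool 1 gave -2.21. Only 46 of the 7910 named genes had a ratio below it. With Agilent's processed signals in place of the main background correction the log2 ratio was -3.02 ± 0.24 (n = 2 pools), or 8.13-fold lower.

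Gimap1 came next. FR gave processed signals of 228 and 159 in pool 2, 159 and 62.1 in pool 3 and 89.2 and 121 in pool 1, against 1760 and 1832, 900 and 937, and 917 and 1192 in control. The groups did not overlap, but FR was well above background only where it was labelled with Cy5, on 2 of the 4 arrays of pools 2 and 3. The log2 ratio was -1.65 ± 0.38 (n = 2 pools; adjusted p = 6.13e-24), with -1.92 in pool 2, -1.38 in pool 3 and -1.88 in pool 1. With processed signals it was -3.32 ± 0.02, a value that rests in part on FR signals not well above background and sets no order against Gimap6.

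Gimap3 and Gimap5 are close paralogs that lie next to each other and whose proteins are anchored in intracellular membranes. Gimap5 had processed signals of 66.4 and 63.4 in FR of pool 2, 61.9 and 54.5 in pool 3 and 47.7 and 58.0 in pool 1, against 557 and 544, 249 and 346, and 385 and 503 in control. Its FR values stayed in a narrow band below all control values. On no array were they well above background, so the size of its fall is uncertain. On the mean of pools 2 and 3 Gimap5 was 1.68-fold lower in FR (limma, adjusted p = 5.57e-08). Its mean normalized log2 signals were 6.49 in FR and 7.24 in control. The log2 ratio was -0.75 ± 0.12 (n = 2 pools), with -0.66 in pool 3, -0.61 without background subtraction and -2.80 with processed signals.

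The brighter of the 2 Gimap3 probes gave 32.8 and 38.8 in FR of pool 2, 29.2 and 67.4 in pool 3 and 41.1 and 18.0 in pool 1, against 437 and 648, 128 and 309, and 210 and 410 in control. Again no FR value was well above background and the groups did not overlap. With dim FR signals raised to the lowest signal well above background, the mean of pools 2 and 3 was 1.59-fold lower in FR. Without that floor the log2 ratio was -0.75 ± 0.31 (n = 2 pools; limma, adjusted p = 4.31e-10). It was -0.53 in pool 3, -0.53 without background subtraction and -3.12 with processed signals. Mean normalized log2 signals were 6.28 in FR and 7.04 in control. The other Gimap3 probe just missed the filter, since control was well above background on 3 of the 4 arrays, and its ratio of -0.67 ± 0.26 (n = 2 pools) ran the same way. Whether probes of the paralogs also capture each other's transcripts was not tested.

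Gimap9 had processed signals of 83.3 and 36.6 in FR of pool 2, 82.2 and 54.4 in pool 3 and 34.4 and 137 in pool 1, against 223 and 389, 146 and 218, and 200 and 247 in control. The highest FR value, 137, came close to the lowest control value, 146, without overlap. No FR value was well above background, so the size of the fall is uncertain. The log2 ratio was -0.34 ± 0.15 (n = 2 pools), with -0.23 in pool 3, -0.23 without background subtraction and -2.01 with processed signals. On the mean of pools 2 and 3 Gimap9 was 1.26-fold lower in FR (limma, adjusted p = 0.00946). Its mean normalized log2 signals were 6.44 in FR and 6.77 in control. The Gimap9 call ended when the variance model took its prior degrees of freedom from 3 pools (adjusted p = 0.0869) and without the replicate block (0.107). It also ended in a variance model without trend (0.0881) and when pool 1 replaced pool 2 (0.0571). Over its 17 alternatives the adjusted p lay between 3.85e-11 and 0.107. The lowest value came when pool 1 replaced pool 3, where the 2 pools tested have mice in common.

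Gimap4, which is known from T cell development and death in mice, and Gimap7 gave control signals near background. Gimap4 was well above background in control on 1 of the 4 arrays of pools 2 and 3, and Gimap7 on 2 of them. On all 6 arrays, Gimap4 ranged from 20.1 to 52.3 in FR, against 61.4 to 186 in control. Gimap7 ranged from 12.6 to 53.2 in FR, against 32.0 to 203 in control, and was the only probe whose groups overlapped. The log2 ratios, -0.13 ± 0.16 for Gimap4 and -0.18 ± 0.09 for Gimap7 (n = 2 pools), were not tested. In all, 7 of the 8 Gimap probes had every FR signal below every control signal, which 6.21% of all 41174 probes did, while 1.15% had every FR signal above. The 5 tested Gimap genes were all without overlap, against 18.4% of the named genes tested (2.48% the other way) and 16.7% of the probes tested (3.15% the other way). As Gimap1, Gimap3, Gimap5 and Gimap9 entered the test through control alone, the count of tested genes without overlap was partly set by the filter.

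**Figure D1:**
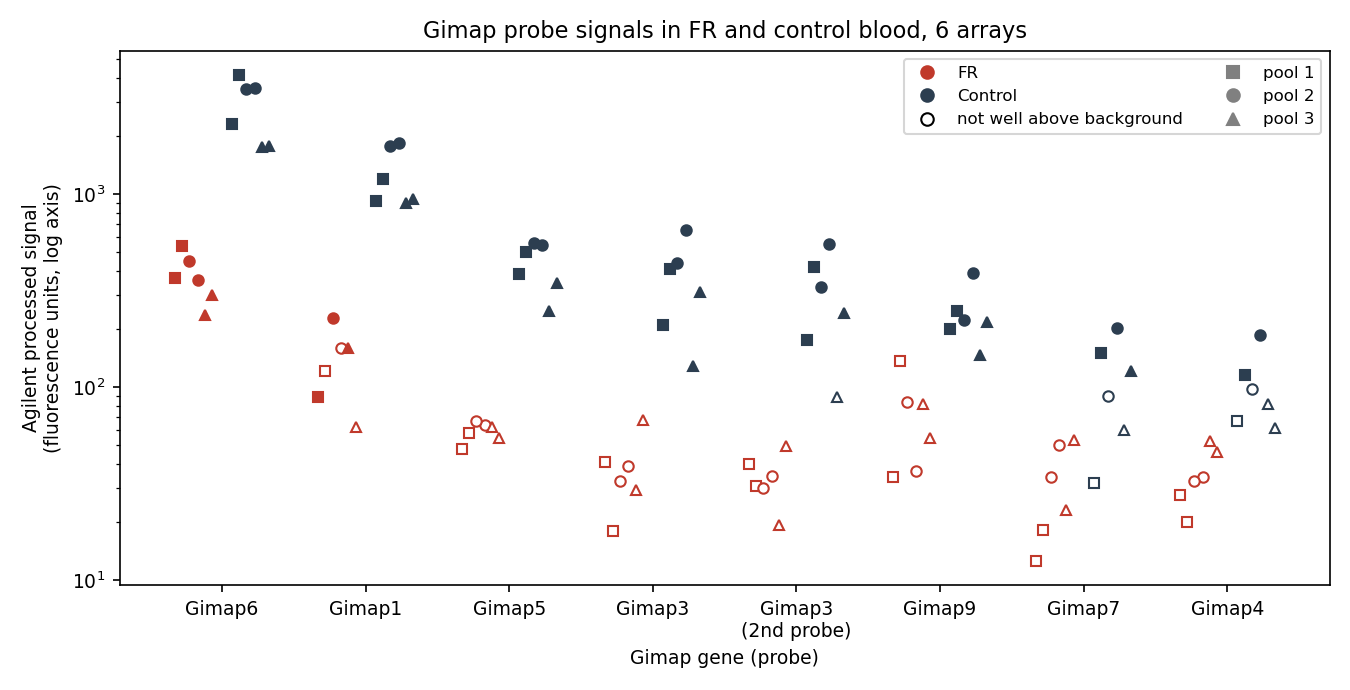
Agilent processed signal on a log axis for each Gimap probe, FR (red) left of control (dark), with a point for each of 6 arrays, shapes for the pools and open points where the signal was not well above background. Gimap6 is filled in FR throughout (235 to 538 units, against 1745 to 4122 in control), whereas the FR points of Gimap3, Gimap4, Gimap5, Gimap7 and Gimap9 are all open.

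The order of the members depended on how dim signals were treated. On the scale of the test the ratios ran Gimap6, Gimap1, Gimap3, Gimap5, Gimap9 from the largest fall to the smallest, close to the order of probe brightness (Gimap6, Gimap1, Gimap5, Gimap3, Gimap9). The offset of 50 that is added to every signal pulls the ratios of dim probes toward 0. The difference of Gimap6 from Gimap1 was -0.37 (log2) in pool 2, -0.37 in pool 3 and -0.33 in pool 1. Gimap3 and Gimap5 could not be ordered, as the difference of Gimap3 from Gimap5 was -0.14 in pool 2, 0.13 in pool 3 and 0.14 in pool 1. With processed signals the order was Gimap1, Gimap3, Gimap6, Gimap5, Gimap9, with log2 ratios of -3.32 ± 0.02, -3.12 ± 1.18, -3.02 ± 0.24, -2.80 ± 0.48 and -2.01 ± 0.66 (n = 2 pools), and the first 4 differed by less than the spread of Gimap3 between pools. Gimap6 is the only member whose ratio rests on FR signals well above background on every array.

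**Figure D2:**
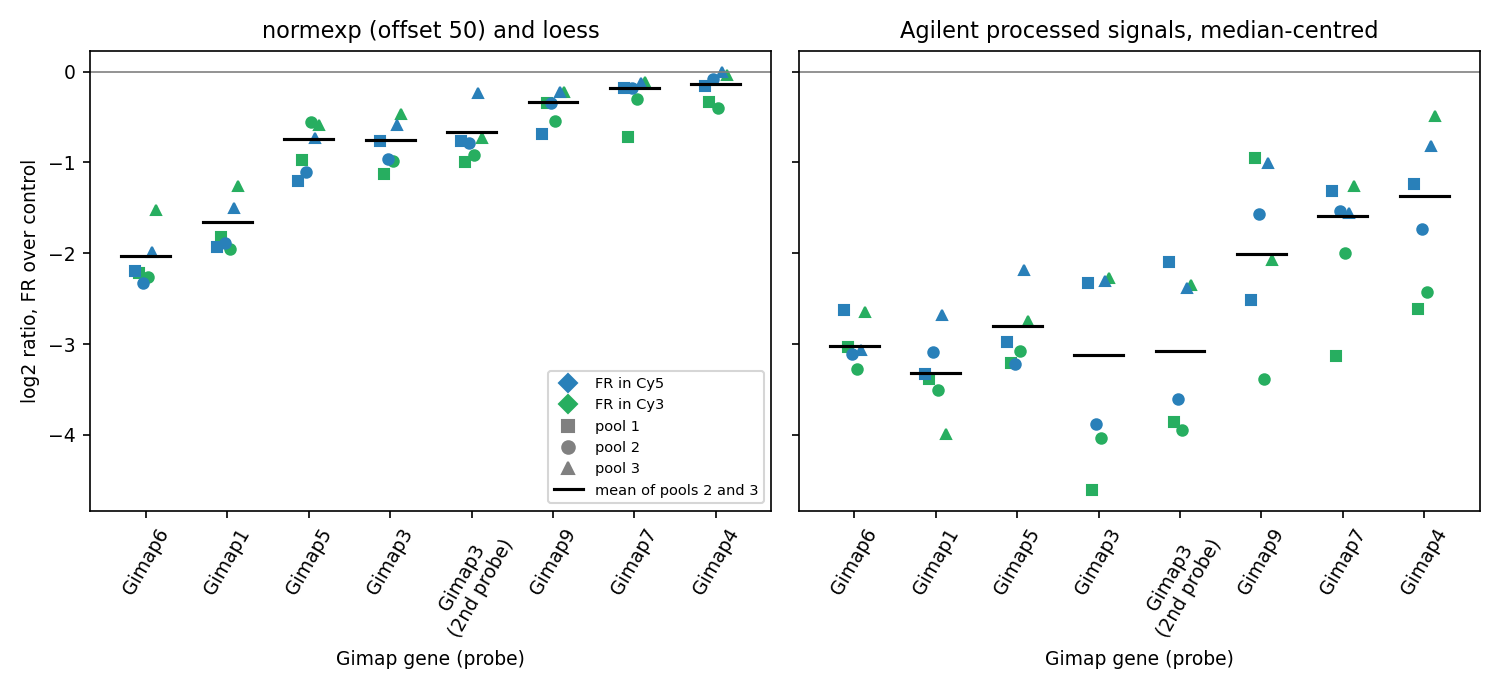
Log2 ratio of FR over control for each Gimap probe and array, from the main correction (left, offset 50) and from Agilent's processed signals (right), with bars at the mean of pools 2 and 3, colours for the dye of FR and shapes for the pools. All points lie below 0. On the left the bars shrink toward 0 with dimmer probes, from -2.03 for Gimap6 to -0.13 for Gimap4. On the right the bars lie between -3.32 and -1.37, and the points of single arrays between -4.61 (Gimap3) and -0.49 (Gimap4).

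The ratios of the tested members were closer to 0 in pool 3 than in pool 2, for each of the 5. Their median was -0.97 in pool 2, -0.66 in pool 3 and -1.09 in pool 1, while the median of all named genes tested was -0.05 in pools 2 and 3 and -0.06 in pool 1. The ratios of tested and untested probes were below 0 with either dye. With FR in Cy5 they were -2.16 for Gimap6, -1.70 for Gimap1 and -0.92 for Gimap5, and with FR in Cy3 -1.89, -1.61 and -0.57 (means of pools 2 and 3). The brighter Gimap3 probe was at -0.78 with FR in Cy5 and -0.73 with FR in Cy3. Other probes fell more with FR in Cy3. The dimmer Gimap3 probe was at -0.51 with FR in Cy5 and -0.83 with FR in Cy3. In the same order Gimap9 was at -0.28 and -0.39, Gimap7 at -0.15 and -0.21, and Gimap4 at -0.05 and -0.22. Per array the median ran from -1.20 to -0.58 and was below 0 on all 6.

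Some but not all markers of lymphocytes were lower as the Gimap genes were, and so were markers of other cell types given below. Their part in the Gimap ratios was not tested. Of 26 T cell markers 19 were tested, 9 fell and none rose, where 28.4% of all named genes tested were lower, and the median log2 ratio was -0.27. The T cell receptor subunit Cd3d at -1.89 ± 0.25 and the surface glycoprotein Thy1 at -1.88 ± 0.33 lay between Gimap6 and Gimap1, whereas the receptor subunit Cd3e at -0.05 ± 0.14 and the phosphatase Ubash3a at 0.20 ± 0.11 did not pass. Ubash3a passed as higher with slide as a block (0.23, adjusted p = 0.0472) and when pool 1 replaced pool 3 (0.27, adjusted p = 0.00635), and over its alternatives the adjusted p was at most 0.870. The summed processed signal of the tested T cell markers ranged from 14167 to 26618 in FR, against 21627 to 34865 in control. Of 18 B cell markers 15 were tested and 11 fell, with a median of -1.58, a range from Cd79b, a subunit of the B cell receptor, at -4.48 ± 0.27 to the lectin Siglecg at -0.01 ± 0.15, and summed signals of 12719 to 20057 in FR, against 52505 to 106874 in control. Of 11 markers of NK and cytotoxic cells 6 were tested and 5 fell, with a median of -0.996. Nkg7, a protein of cytotoxic granules, was at -1.52 ± 0.30 and Ccl5, a chemokine, at -1.67 ± 0.30. Perforin (Prf1) at -0.28 ± 0.06 passed narrowly (adjusted p = 0.0467) and failed in 8 of 17 alternatives, over which its adjusted p lay between 1.91e-07 and 0.299. The lowest value came when pool 1, which shares mice with pool 2, replaced pool 3. NK markers summed to 848 to 1257 in FR, against 4108 to 6552 in control. For the 5 tested Gimap genes the sums were 536 to 872 in FR and 3167 to 6927 in control. Gimap6 alone gave 235 to 538 in FR and 1745 to 4122 in control. Such sums weigh the brightest members most. The median ratio of the 5 Gimap genes was -0.75, against -0.04 for all named genes tested.

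Genes that keep naive lymphocytes quiescent, alive and recirculating were lower in 12 of 15 tested members, of 17 on the list, against 28.4% of all named genes tested, with a median of -0.95. The antiproliferative factor Btg1 was at -1.52 ± 0.30, while the transcription factor Klf2 did not pass at 0.23 ± 0.27. Il7r, Ccr7, Lef1 and Tcf7 are on both this list and the T cell list. Of 7 BCL2 family genes, to which reported partners of Gimap proteins belong, 5 were tested, with a median of -0.09. The survival factor Mcl1 was lower at -2.52 ± 0.40, its relative Bcl2l1 higher at 0.61 ± 0.45, and the death effector Bak1 did not pass at 0.13 ± 0.01. The dyes disagreed on Bak1, which was at 0.58 with FR in Cy5 alone (adjusted p = 0.000124) and -0.33 with FR in Cy3 alone (adjusted p = 0.206), with adjusted p of at most 0.865 over its alternatives. The Bcl2l1 call ended with median centring (adjusted p = 0.0926), with prior degrees of freedom taken from 3 pools (0.0812), without the replicate block (0.0740) and with FR in Cy3 alone (0.0958). Of the 8 genes that flank the cluster 2 were tested and neither passed, Rarres2 at 0.10 ± 0.11 and Zfp775 at 0.18 ± 0.02.

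Other cell types that blood can hold gave a mixed picture, with most tested monocyte and platelet markers lower, and their part was not tested either. Lower members numbered 7 of 8 tested for monocyte, 7 of 9 for platelet, 3 of 8 for neutrophil, 1 of 9 for erythroid and 1 of 4 for endothelial markers, with medians of -1.27, -1.09, -0.21, 0.09 and -0.03, where 28.4% of all named genes tested were lower. The neutrophil and endothelial shares lie near that background. Among these lists 1 neutrophil and 2 erythroid members rose. Summed signals were 21643 to 34236 in FR, against 158414 to 389581 in control, for monocyte markers, and 181520 to 331243 in FR, against 470149 to 783685 in control, for platelet markers. They were 39397 to 68643 in FR, against 51749 to 173203 in control, for neutrophil markers, and 2421895 to 5130155 in FR, against 1543291 to 4599867 in control, for erythroid markers. Endothelial markers summed to 2157 to 4594 in FR, against 2362 to 4210 in control. FR was well above background on none of the 4 arrays for 2 T cell, 1 B cell, 1 NK and 2 monocyte markers. These lists were filtered as the Gimap genes were, and the counts are descriptions.

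**Figure D3:**
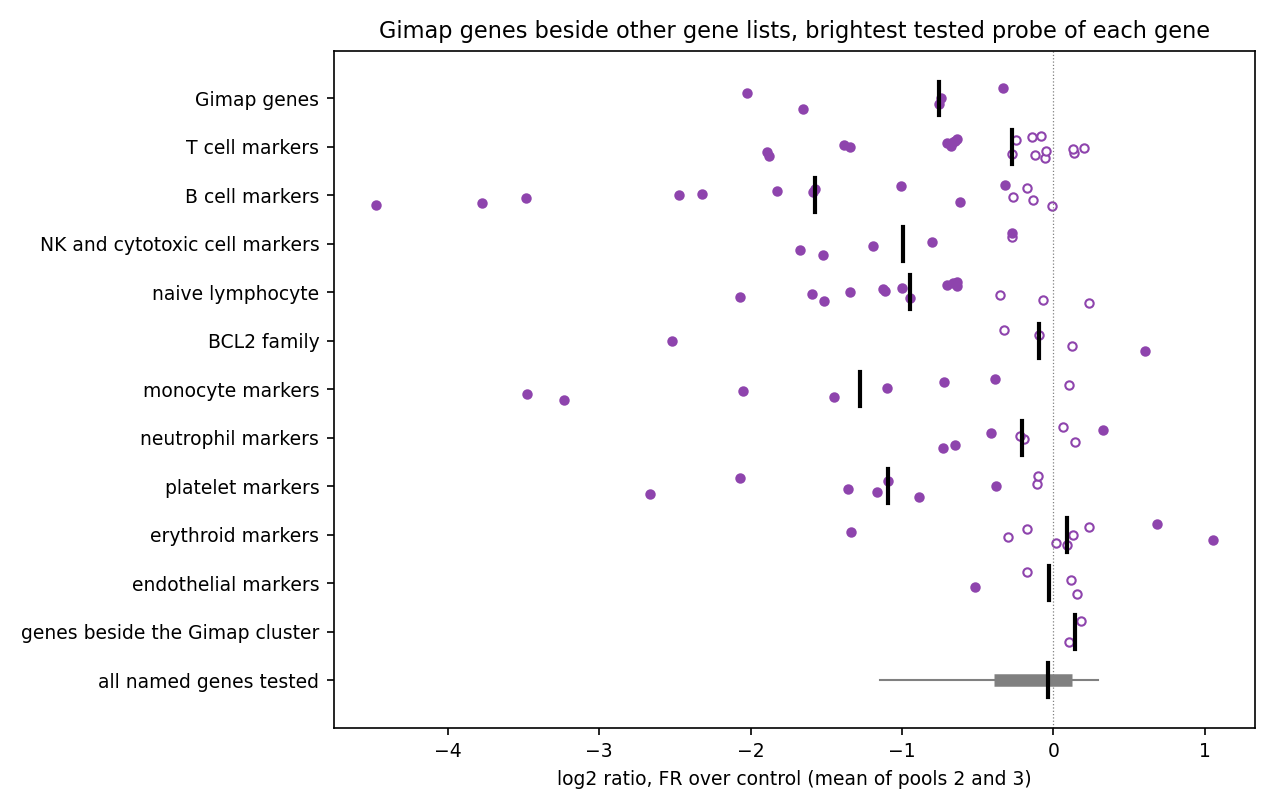
Log2 ratio of FR over control, mean of pools 2 and 3, for the brightest tested probe of each gene of a list; filled points passed the test, black bars are medians, and the last row gives the 5th to 95th percentile (thin line) and quartiles (thick line) of all named genes tested. The Gimap median of -0.75 lies between those of the B cell (-1.58) and T cell (-0.27) markers, and Gimap6 and Gimap1 lie below the 5th percentile of all named genes (-1.15).

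The genes outside the family whose ratios over the 6 arrays came closest to the median Gimap ratio were Smad4, a transducer of TGF-beta signals, Psen2, a presenilin, Selenbp1, a selenium-binding protein, Tomm7 of the mitochondrial import channel and Sdhd, an anchor subunit of succinate dehydrogenase. Their root mean square differences from the Gimap median were 0.07, 0.08, 0.09, 0.09 and 0.09 (log2, over 6 arrays that share animals), and their log2 ratios lay between -0.89 and -0.81. Without the replicate block the calls of Psen2 and Sdhd ended (adjusted p = 0.0735 and 0.0702). Gimap5 itself differed by 0.19 from the median, and 145 genes outside the family were closer than that, so the likeness singles out no gene.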

How the data were processed

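Whole blood RNA of FR and control mice was measured on 6 two-colour Agilent arrays. Spot intensity values, linear in scale, come from scanner files the authors deposited. Their extraction software was Agilent Feature Extraction 11.0.1.1, according to the submitters' processing notes. In the authors' deposited value table, log10 ratios are red over green processed signal, neither turned nor centred; its column medians for FR in Cy5 and then in Cy3 were -0.00938 and -0.0277 (pool 1), 0.0441 and 0.00763 (pool 2) and 0.0520 and -0.0221 (pool 3). Ratio directions came from the dyes in the labels. Processed signals are already background-subtracted and dye-normalized by the scanner software, per the file headers.

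Median signals were corrected with normexp (offset 50) and log2 ratios normalized by loess within arrays, with control spots at weight 0. Outlier spots were left out, spots of a probe averaged, ratios turned to FR over control and the 2 arrays of a pool averaged. Pools 2 and 3 were tested against 0 by lmFit and eBayes with a variance trend (two-sided; R 4.3.3, limma 3.58.1), Benjamini-Hochberg adjusted over 13258 probes. With 2 pools the fit gave probes of like brightness a common variance, so single p-values overstate certainty. The labels do not say at which step RNA was pooled. The p-values rest on the spread between pools 2 and 3 over probes of like brightness. They measure neither a probe's own SD, as printed beside them, nor the spread between mice. FR and control share an array, so the pool is a block by construction. Probes were named through the RefSeq table of GRCm38.p6 (23384 probes, 16543 genes), used for names, gene order and promoter windows. The brightest tested probe stands for a gene. The floor used for Gimap3 sets dim FR signals at no less than the lowest signal well above background (per channel, loess and Aquantile). It left the mean FR signals of Gimap5 and Gimap9 unchanged.

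All Gimap genes are named; from the lymphocyte, BCL2 and flanking lists, the tested members with the largest ratio either way and the 2 brightest; and the 5 genes of closest profile. Other lists are given as counts. A gene that this rule names is not reported here. Members and lists were chosen with earlier results of these data known. The test was also run on simulated data. There all probes had a common spread by construction, so that run does not bear on how far the p-values can be trusted.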

Additional observations from a re-analysis of the deposited data

Results flagged for a closer look

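For 2 of the 8 Gimap probes, the ratio on 1 of the 6 arrays stood apart from the others by Dixon's gap test. By chance this occurs in about 1 in 20 groups of independent values. The 6 arrays share animals, so that rate need not hold here. Gimap7 had a log2 ratio of -0.72 in pool 1 with FR in Cy3, and the nearest of the other arrays was at -0.30. The dimmer Gimap3 probe had -0.24 in pool 3 with FR in Cy5, and the nearest was at -0.73. FR was not well above background in either case, and on that Gimap3 array control was not either. The cause was not tested.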

How the results depend on the processing

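Gimap1, Gimap3, Gimap5 and Gimap6 were lower and passed under every alternative that gave them a value (17, 17, 17 and 18), with largest adjusted p (limma) of 0.00389, 0.0315, 0.0195 and 0.00222. Gimap9 was lower in all 17 and lost its call in 4, as given above. The alternatives are not independent checks. Those that take pool 1 or single arrays of a pool as replicates count the same mice more than once. With FR and control both required above background only Gimap6 was left, so 1 Gimap gene was lower, with a median of -2.03. Under that filter 2054 of 7872 probes tested were called and 23 of 56 list genes tested were lower. In the main fit 3907 of 13258 probes were called and 53 of 96 list genes were lower. The median Gimap ratio of -0.75 was -3.02 with processed signals, -3.02 with the authors' series table, which holds the same ratios, and -0.997 with median centring, which moved the median of all probes tested to -0.20, against -0.01. In all 3907 probes were called, against 1507 without the replicate block and 2385 where prior degrees of freedom (5.53) came from 3 pools; 4 of 5 Gimap genes were lower in each of these. When pool 1, which shares animals with each, replaced pool 2 or pool 3, 3529 to 7020 probes were called, 4 to 5 Gimap genes were lower, with a median of -0.96 to -0.87, and 47 to 69 list genes were lower, against 53. Without a filter on dim probes Gimap4 and Gimap7 were tested and did not pass (adjusted p = 0.428 and 0.233). Genes that had not passed changed sign as follows: Bak1 was at -0.33 with FR in Cy3 alone and Siglecg at 0.051; Klf2 was at -0.20 with FR in Cy5 alone; median centring put Bak1 at -0.071, Rarres2 at -0.071, Ubash3a at -0.046 and Zfp775 at -0.0019; and when pool 1 replaced pool 2 or 3, Cd3e lay between -0.078 and 0.021 and Siglecg between -0.097 and 0.0063. The cause was not tested. Bak1 gained a call with FR in Cy5 alone (0.58), and Ubash3a with slide as a block (0.23) and when pool 1 replaced pool 3 (0.27). Low FR signals limit the size of every Gimap ratio, that of Gimap6 included, which was -3.02 with processed signals and -1.82 without background subtraction.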
